A study of Rattus norvegicus with 9 samples.

Results

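Runx1, Pou4f1, Avil and P2rx3 are genes best known from sensory ganglia, and their RNA was measured here in pools of ventral spinal cord from rat embryos. The members are every probe set of the array whose annotation gives 1 gene symbol equal to one of these 4 names, which found 6 probe sets among the 20826 with 1 symbol. The 4 genes were chosen by their mutant and wild-type values on these same arrays, so the differences between mutant and wild-type pools are given for them as a description, without a test. Each of 9 Affymetrix rat arrays carried total RNA of 1 pool of 5 embryos at embryonic day 14. Of these, 4 pools carried a mutant human SOD1 transgene with the G93R change (labelled Roth), 4 pools carried a wild-type human SOD1 transgene (labelled Chan) and 1 pool is named as the SOD1 negative control (labelled SDneg). The description of the negative control also speaks of positive embryos, and it is a single pool with no replicate. The labels name 1 source for each transgene, so the mutation, the rat line and whatever else the names Roth and Chan mark cannot be told apart.

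Neurons of the dorsal root ganglia carry touch, pain and temperature signals into the dorsal horn, and their cell bodies lie outside the cord. Runx1 encodes a runt-domain transcription factor that directs the nociceptor fate in mouse ganglia, is also made by some motor neurons of the mouse cord and is needed for blood formation. Pou4f1, also called Brn3a, encodes a POU homeodomain factor of sensory neurons that some dorsal cord interneurons make as well in mouse. Avil encodes advillin, an actin-binding protein of the villin family found in sensory neurons of the mouse. P2rx3 encodes an ATP-gated cation channel subunit of nociceptors. Mutations of human SOD1, an enzyme that removes superoxide, underlie an inherited amyotrophic lateral sclerosis, in which motor neurons die.

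RUNX proteins bind DNA, so the start regions of the members were searched for the RUNX motif, written as TGTGGT or TGCGGT and read on both strands (ACCACA or ACCGCA on the other). The RefSeq tables held all 4 genes, with 5 start regions of 300 bases on assembly GRCr8, each with 250 bases before the start and 50 after it. Avil and P2rx3 are shown because theirs held a match, and Runx1 because, of the members, its level differed most between mutant and wild-type pools. Capitals mark the motif. The Avil region is chr7:64711153-64711452 on the plus strand, the P2rx3 region chr3:90531266-90531565 on the minus strand, and the Runx1 region chr11:45421276-45421575 on the minus strand. Each is written 5′ to 3′ along the gene.
Avil: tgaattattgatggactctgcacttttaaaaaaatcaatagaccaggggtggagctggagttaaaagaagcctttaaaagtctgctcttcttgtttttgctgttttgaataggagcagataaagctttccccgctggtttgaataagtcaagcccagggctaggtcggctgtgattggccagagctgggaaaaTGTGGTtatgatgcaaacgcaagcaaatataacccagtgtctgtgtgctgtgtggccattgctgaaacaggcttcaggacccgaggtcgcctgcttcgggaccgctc
P2rx3: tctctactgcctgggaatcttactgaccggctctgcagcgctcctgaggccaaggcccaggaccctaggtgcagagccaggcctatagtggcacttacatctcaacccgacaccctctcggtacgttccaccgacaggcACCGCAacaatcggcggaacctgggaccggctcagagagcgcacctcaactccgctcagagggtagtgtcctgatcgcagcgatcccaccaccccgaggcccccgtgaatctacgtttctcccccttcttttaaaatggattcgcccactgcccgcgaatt
Runx1: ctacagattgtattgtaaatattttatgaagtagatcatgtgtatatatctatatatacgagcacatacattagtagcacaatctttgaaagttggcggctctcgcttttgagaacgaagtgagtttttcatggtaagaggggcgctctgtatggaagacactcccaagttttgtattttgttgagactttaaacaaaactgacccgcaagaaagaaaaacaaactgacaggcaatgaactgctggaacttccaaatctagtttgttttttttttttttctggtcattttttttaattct
The Avil match began 57 bases before the start, and the P2rx3 match 111 bases before it. The Runx1 region, the Pou4f1 region and the second P2rx3 start region held 0 matches. Of all 33469 start regions of the same length, 7668 (22.9%) held at least 1 match. A match is a stretch of letters and was not linked here to binding.

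All 9 arrays were on 1 linear intensity scale, with medians between 31.0 and 33.9. Probe sets with a mean intensity above about 17.3 were tested, 18625 in all. Of the 6 member probe sets, 4 lay above this limit, and the Avil probe set and 1 P2rx3 probe set lay below it. RNA integrity was read from the beta-actin 3′/5′ ratio, which was 7.31 ± 0.465 in mutant pools, 11.3 ± 5.29 in wild-type pools (SD, n = 4 each), with 6.66 in the negative control. The mutant and wild-type pools did not overlap in it (two-sided exact permutation p = 0.0286, and 70 arrangements allow none smaller), and wild-type replicate 2 had the highest ratio, 19.2. The part of this ratio in the differences between mutant and wild-type pools was not tested beyond a fit that holds it as a covariate, whose values are given for each member. The GAPDH 3′/5′ ratio was 2.55 ± 0.0423 in mutant pools, 2.88 ± 0.460 in wild-type pools (SD), with 2.68 in the negative control. In the GAPDH ratio the mutant and wild-type pools overlapped (two-sided exact permutation p = 0.0571). In such pools, fewer cells of a type and less RNA per cell cannot be told apart.

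Runx1 RNA was higher on average in mutant pools than in wild-type pools on both of its probe sets. The Runx1 probe set 1368914_at read 131.9, 103.3, 110.9 and 97.4 in the 4 mutant pools, 67.1, 69.4, 102.6 and 43.7 in the 4 wild-type pools, with 56.0 in the negative control. Of the mutant pools, 3 lay above all wild-type pools, while wild-type replicate 3 lay above mutant replicate 4, so the groups overlapped. Its mean was 111 ± 15.1 in mutant pools and 70.7 ± 24.2 in wild-type pools (SD, n = 4 each), a ratio of 1.57. The log2 difference, mutant minus wild-type, was 0.64 (SE 0.193, 95% interval 0.22 to 1.05, not adjusted for the probe sets tested), on the scale of log2(intensity + 8.25) used for every difference here. A difference at least this high was found at 0.193% of the tested probe sets, and Runx1 was chosen with these values known. With the beta-actin ratio as a covariate the difference was 0.66. The coefficient of variation was 13.6% among mutant pools and 34.3% among wild-type pools.

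The Runx1 probe set 1395442_at read 23.4, 24.9, 29.6 and 21.5 in mutant pools, 11.8, 11.9, 21.1 and 12.7 in wild-type pools, with 15.6 in the negative control. All 4 mutant pools lay above all 4 wild-type pools, although mutant replicate 4 and wild-type replicate 3 nearly met. A gap of this kind between the groups, in either direction, occurred at 550 of the 18625 probe sets tested, 2.95%, and 319 of those (1.71% of the tested) were higher in mutant pools. The mean was 24.9 ± 3.44 in mutant pools and 14.4 ± 4.51 in wild-type pools (SD, n = 4 each). The log2 difference was 0.56 (SE 0.178, 95% interval 0.18 to 0.95). With 4 times the pseudocount (33.0) this difference was 0.29, and with the beta-actin ratio as a covariate it was 0.47. Its wild-type mean lay under the limit for testing of 17.3, so the probe set passed that limit through its mutant values. Wild-type replicate 3 was the highest wild-type pool on both Runx1 probe sets.

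Adjusted over all 18625 probe sets with limma, 3 were called between mutant and wild-type pools, 0.0161% of those tested, all lower in mutant pools. Without adjustment, 918 probe sets (4.93%) had a p under 0.05. In the order of group levels, the negative control lay lowest on the Runx1 probe set 1368914_at, under all 4 mutant pools and 3 of 4 wild-type pools. On 1395442_at it lay under all 4 mutant pools and above 3 of 4 wild-type pools. Across the tested probe sets, all 4 mutant pools lay above the negative control at 18.4%.

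**Figure D1:**
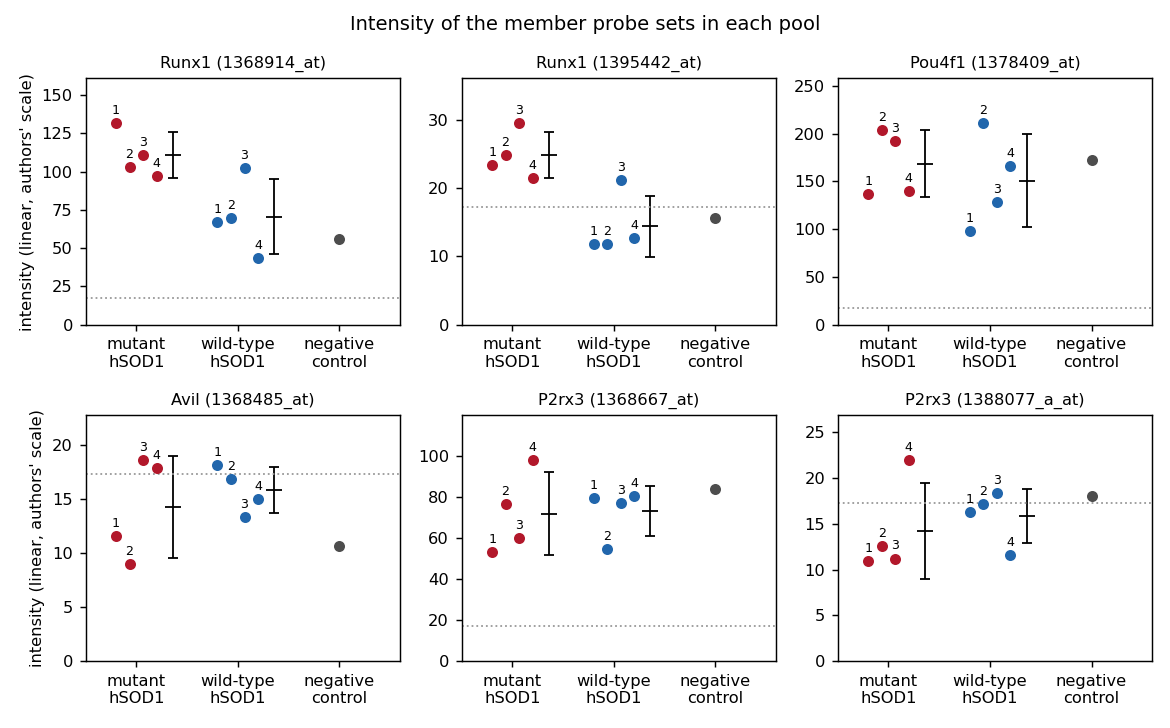
Intensity of each member probe set (linear axis from 0) in the mutant pools, the wild-type pools and the negative control; points are single pools of 5 embryos, and bars beside them are the mean with 1 SD of the 4 pools of a group. Numbers beside points are replicate numbers, and the dotted line is the limit for testing (17.3). On Runx1 1395442_at the mutant and wild-type points do not overlap, while on the other 5 panels they do.

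Pou4f1 levels in mutant pools overlapped those in wild-type pools. Its single probe set, 1378409_at, read 137, 204, 193 and 140.4 in mutant pools, 97.9, 211, 128 and 166 in wild-type pools, with 172 in the negative control. Both the lowest and the highest of the 9 values were wild-type pools. The mean was 168 ± 35.0 in mutant pools and 151 ± 49.0 in wild-type pools (SD, n = 4 each), which gave 0.18 as log2 difference (SE 0.203, 95% interval −0.26 to 0.62). Leaving out wild-type replicate 1 gave 0.0040, leaving out wild-type replicate 2 gave 0.35, and it was 0.49 with the beta-actin ratio as a covariate. The negative control fell inside both ranges, with 2 mutant pools and 1 wild-type pool above it.

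Avil lay below the median intensity of the array in every pool. Its probe set, 1368485_at, read 11.5, 9.02, 18.6 and 17.9 in mutant pools, 18.1, 16.8, 13.3 and 15.0 in wild-type pools, with 10.6 in the negative control. Mutant pools gave both the lowest and the highest of the transgenic values, and the groups overlapped. The mean was 14.3 ± 4.72 in mutant pools and 15.8 ± 2.10 in wild-type pools (SD, n = 4 each), which as a log2 difference was −0.12 (SE 0.193, 95% interval −0.54 to 0.31). It was −0.09 with the beta-actin ratio as a covariate, 0.0034 without mutant replicate 2 and −0.21 without mutant replicate 3. The Avil probe set was below the limit for testing.

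P2rx3 means were within 1 SD of each other in mutant and wild-type pools on both of its probe sets. Probe set 1368667_at read 53.0, 76.4, 59.9 and 98.3 in mutant pools, 79.7, 54.9, 77.1 and 80.7 in wild-type pools, with 84.0 in the negative control. The highest value was mutant replicate 4, the lowest was mutant replicate 1, and the groups overlapped. The mean was 71.9 ± 20.1 in mutant pools and 73.1 ± 12.2 in wild-type pools (SD, n = 4 each), which as a log2 difference was −0.04 (SE 0.180, 95% interval −0.43 to 0.35). The sign of this difference changed when single pools were left out, within a range of −0.19 to 0.08. With the beta-actin ratio as a covariate it was −0.24.

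The second P2rx3 probe set, 1388077_a_at, was below the limit for testing and read 10.9, 12.6, 11.2 and 22.0 in mutant pools, 16.3, 17.1, 18.3 and 11.5 in wild-type pools, with 18.0 in the negative control. Mutant replicate 4 was again the highest pool, and the other 3 mutant pools lay below 3 of the 4 wild-type pools. Its mean was 14.2 ± 5.25 in mutant pools and 15.8 ± 2.97 in wild-type pools (SD, n = 4 each), which as a log2 difference was −0.12 (SE 0.199, 95% interval −0.56 to 0.32). With the beta-actin ratio as a covariate it was −0.07.

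**Figure D2:**
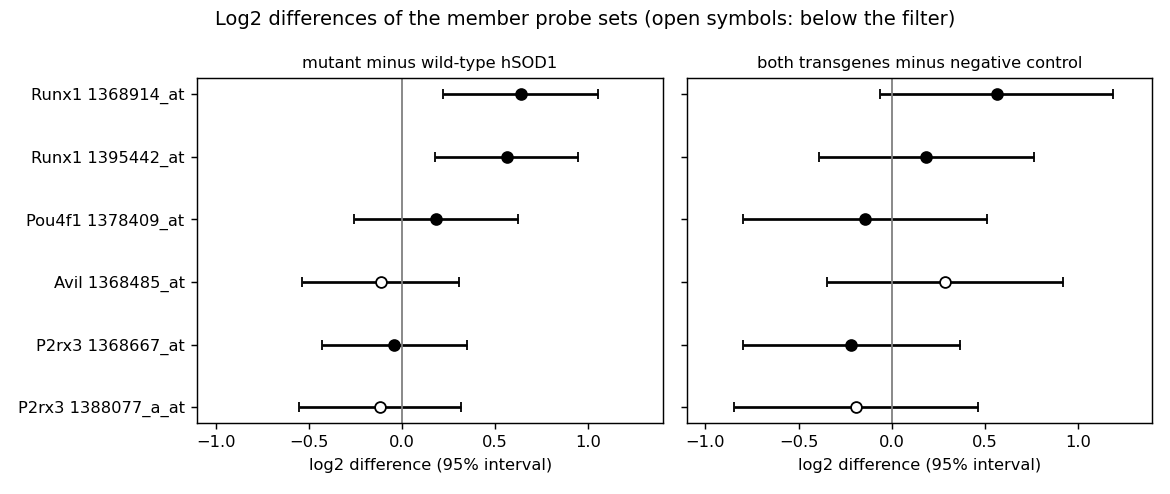
Log2 difference of each member probe set with its 95% interval, for mutant minus wild-type pools and for transgenic pools minus the negative control; the vertical line marks 0. Mutant minus wild-type values are a description of genes chosen with these values known, and range from −0.12 to 0.64, with Runx1 highest. Runx1 1395442_at passed the limit for testing through its mutant values.

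The mean of both transgenic groups was set against the single negative control in a limma fit of all 9 arrays, which assumes that the negative control varies like the transgenic pools. None of the 4 tested member probe sets passed, with an adjusted p of 1.00 each in limma, and 0 of them had an unadjusted p under 0.05. In the same fit 0 of 18625 probe sets passed, 0% of those tested, and 581 (3.12%) had an unadjusted p under 0.05. Runx1 1395442_at, among the 4 tested, had passed the limit for testing through its mutant values, so its result here is not free of that filter. The log2 difference, transgenic minus negative control, was 0.57 (SE 0.290, 95% interval −0.06 to 1.19) for Runx1 on 1368914_at and 0.19 (SE 0.268, 95% interval −0.39 to 0.77) on 1395442_at. Over the alternatives run these were 0.44 to 0.68 and 0.08 to 0.25, the lower value on 1395442_at with the le2 tag as a covariate. The Runx1 interval on 1368914_at reaches past a doubling, so the single control leaves such a size within the error.

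The Pou4f1 difference, transgenic minus negative control, was −0.14 (SE 0.305, 95% interval −0.80 to 0.51). It was −0.54 with the le2 tag as a covariate, −0.37 with the beta-actin ratio as a covariate and −0.05 without wild-type replicate 1. For P2rx3 it was −0.22 (SE 0.269, 95% interval −0.80 to 0.36) on 1368667_at and −0.19 (SE 0.299, 95% interval −0.85 to 0.46) on 1388077_a_at. On 1368667_at P2rx3 was −0.33 with the le2 tag and −0.07 with the beta-actin ratio as a covariate, and on 1388077_a_at the alternatives gave −0.27 to −0.09. For Avil it was 0.29 (SE 0.290, 95% interval −0.35 to 0.92), with 0.14 to 0.40 over the alternatives. Taken group by group, the Runx1 difference from the negative control on 1368914_at was 0.88 in mutant pools and 0.25 in wild-type pools, and on 1395442_at 0.47 in mutant pools and −0.09 in wild-type pools. These values share the same control array, and the difference between them is the mutant minus wild-type difference already given.

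The titles of 6 pools, replicates 2 to 4 in each transgenic group, end in le2, a tag the labels do not explain, and those of both replicates 1 do not. Among the tagged pools (3 of each group) the Runx1 difference, mutant minus wild-type, was 0.55 on 1368914_at and 0.53 on 1395442_at, and between the untagged pools (1 of each) it was 0.90 and 0.66. These values split the ones that chose Runx1 and are no independent support. For Pou4f1 these differences were 0.09 among tagged and 0.45 between untagged pools, and for P2rx3 on 1368667_at they were 0.12 and −0.52. For Avil they were −0.02 among tagged and −0.41 between untagged pools. The untagged values rest on single pools.

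**Figure D3:**
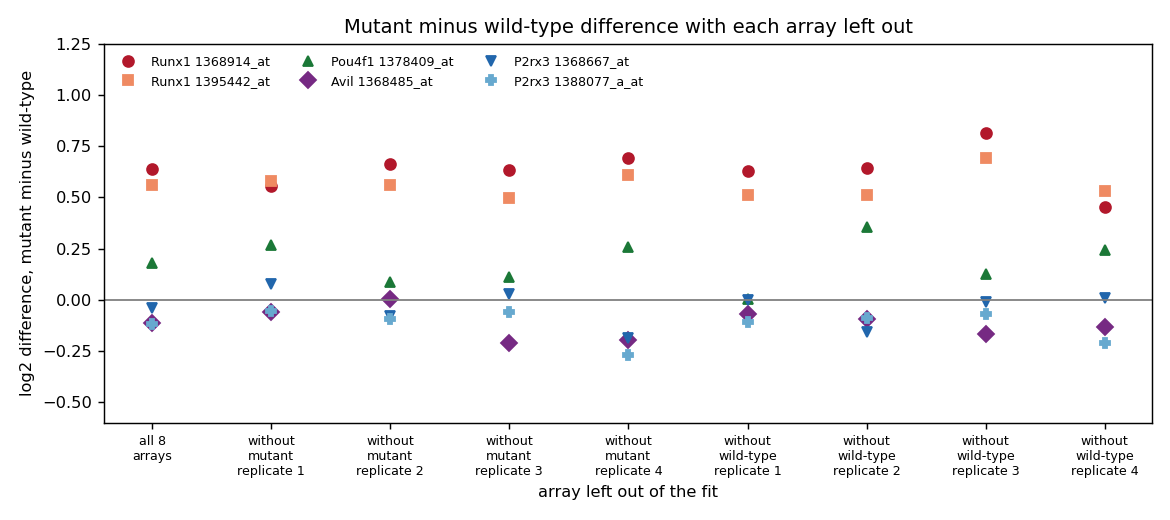
Mutant minus wild-type log2 difference of each member probe set with all 8 transgenic arrays and with each array left out in turn. Both Runx1 probe sets stay above 0 in every fit (0.45 to 0.82 and 0.50 to 0.69), Pou4f1 comes to 0.0040 without wild-type replicate 1, and P2rx3 1368667_at takes both signs.

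Whether the members moved together from pool to pool was examined on the departures of the 8 transgenic arrays from their group means, over 8 pairs of probe sets. The 2 Runx1 probe sets had a Pearson r of 0.63 (exact permutation p = 0.290, adjusted 0.667). Their Spearman rho was 0.38 (exact permutation p = 0.436), and r was 0.10 without the 2 pools farthest from the median on 1368914_at. The 2 P2rx3 probe sets had an r of 0.54 (exact permutation p = 0.245, adjusted 0.667) and a rho of 0.24 (exact permutation p = 0.622). Their r was 0.72 without the 2 pools farthest from the median on 1368667_at. Runx1 and P2rx3 (1368914_at and 1368667_at) had an r of −0.35 (exact permutation p = 0.306, adjusted 0.667) and a rho of −0.81 (exact permutation p = 0.0295, adjusted 0.236). The r without the 2 pools farthest from the median on 1368914_at was −0.83 for that pair. None of the 8 pairs passed the threshold after Benjamini-Hochberg adjustment.

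Genes with the pattern most like each member over the 9 arrays were found by Pearson r on the log2 scale, as a description across the tested probe sets with 1 symbol (13294 for Runx1, 13295 for Pou4f1 and P2rx3 and 13296 for Avil), with 3 given per member. For Runx1 (1368914_at) these were Litaf (r = 0.92), As3mt (0.91) and Hint3 (0.91). For Pou4f1 they were Sema6c (0.94), Sorl1 (0.94) and Telo2 (0.93). For Avil they were Cep78 (0.95), Dis3l (0.88) and Fam227a (0.87), and for P2rx3 (1368667_at) Cmtm8 (0.95), Ptk2 (0.92) and Tbk1 (0.91). On departures from the group means of the 8 transgenic arrays, Litaf had an r of 0.81 and Hint3 of 0.79 with Runx1, and Fam227a had 0.84 with Avil. No test was made of these likenesses, which rest on 9 arrays.

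The partners and relatives of the members gave further context. Cbfb encodes the non-DNA-binding subunit with which RUNX proteins pair. Its brighter probe set, 1399033_at, read 951, 834, 902 and 839 in mutant pools, 732, 544, 803 and 820.3 in wild-type pools, with 1019 in the negative control. The mutant and wild-type pools did not overlap, as at 2.95% of the tested probe sets, and the negative control lay above all 8 transgenic pools. It lay to 1 side of all 8, in either direction, at 19.7% of the tested probe sets. The Cbfb difference, mutant minus wild-type, was 0.29 and did not pass the test. The second Cbfb probe set, 1395821_at, was below the limit at 9.77 ± 1.86 in mutant pools, 8.59 ± 6.19 in wild-type pools, with 12.7 in the negative control, and its groups overlapped. Of the 4 measured RUNX partners and relatives above the limit (Cbfb, Runx1t1, Cbfa2t2 and Cbfa2t3), 3 had a higher mean log2 value in mutant than in wild-type pools. All 4 were lower in transgenic pools than in the negative control. In limma 0 passed in either comparison, and 1 had an unadjusted p under 0.05 between mutant and wild-type pools (4.93% of all tested).

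P2rx2, whose product joins with the P2rx3 subunit in sensory neurons, read 54.4, 40.2, 25.4 and 85.1 in mutant pools, 49.4, 23.7, 40.4 and 42.7 in wild-type pools, with 39.1 in the negative control. The P2rx2 groups overlapped, and mutant replicate 4 was highest for P2rx2 as it was for P2rx3. P2rx2 was the single tested gene of 6 measured in its family beside P2rx3. Of 5 tested POU genes, 1 had a higher and 4 a lower mean log2 value in mutant than in wild-type pools (median −0.14). Of 3 tested villin and gelsolin relatives of Avil, 2 were higher and 1 lower (median 0.01), and in both families 0 passed and 0 had an unadjusted p under 0.05.

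The name sensory ganglion genes was checked against a list of 40 others known from sensory ganglia, of which 33 had a probe set with that symbol in the annotation used here. The list was drawn up with earlier results of these arrays known. Of the 33, 20 lay above the limit for testing and 13 below it, among them Drgx, Runx3, Foxs1, Trpv1, Piezo2, Scn11a, Tlx3, Asic3 and Trpm8. The highest value of any of the 9 arrays was 23.2 for Drgx and 21.3 for Runx3, both transcription factors of sensory neurons, and 14.6 for Trpv1, the capsaicin receptor. It was 5.64 for Piezo2, a mechanically gated channel, and 1.53 for Trpm8, the cold receptor. Other sensory genes that are not on the motor neuron list lay above the limit, and these were picked after their values were seen. Absence from that short list does not show that cord cells lack a gene, and which cells made this RNA was not tested. Scn9a, a sodium channel gene of nociceptors, was 187 ± 30.6 in mutant pools, 228 ± 46.0 in wild-type pools, with 137 in the negative control. Ntrk3, a neurotrophin receptor gene, was 129.9 ± 17.2 in mutant pools, 135 ± 17.7 in wild-type pools, with 117 in the negative control. Tac1, Gfra3 and Calca lay above the limit as well, so the pools held some sensory genes of the list above it and others below it.

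Several genes on the list are made by spinal motor neurons too: the bright genes Isl1 and Prph and the dimmer Isl2 stand on both lists. The mean of Isl2 over the 9 arrays was 45.5. Sncg, which encodes gamma-synuclein, was 3476 ± 681 in mutant pools, 2719 ± 141 in wild-type pools, with 2968 in the negative control. Prph, an intermediate filament gene of peripheral and motor neurons, was 2503 ± 422 in mutant pools, 2316 ± 254 in wild-type pools, with 1847 in the negative control. The LIM homeobox gene Isl1 was 468 ± 104 in mutant pools, 337 ± 36.9 in wild-type pools, with 393 in the negative control. The neurotrophin receptor genes Ntrk2 (416 ± 36.4 in mutant pools and 490.3 ± 85.4 in wild-type pools) and Ngfr (753 ± 47.2 in mutant pools and 839 ± 162 in wild-type pools) had lower means in mutant pools. Neurod1, Shox2 and Ret were 292 ± 31.5, 642 ± 194 and 619 ± 114 in mutant pools and 367 ± 61.6, 716 ± 102 and 565 ± 36.6 in wild-type pools. For these 8 genes the mutant and wild-type pools overlapped.

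Over the 20 tested genes of the list, 8 were higher and 12 lower in mutant than in wild-type pools, with a median log2 difference of −0.04, where all tested probe sets had a median of 0.01 and 53.7% higher. The median was 0.02 with the beta-actin ratio as a covariate and 0.0025 without wild-type replicate 2. Against the negative control, 15 were higher and 5 lower in transgenic pools, with a median of 0.07, where all tested probe sets had −0.02 and 46.5% higher. In limma 0 of the 20 passed in either comparison, and 3 had an unadjusted p under 0.05 in each. Among all tested probe sets this share was 4.93% between mutant and wild-type pools and 3.12% against the negative control. The median over the 4 tested member probe sets was 0.37 between mutant and wild-type pools and 0.02 against the negative control. Both Runx1 probe sets are among these 4, so Runx1 weighs more in both medians than the other members. The 0.37 describes genes chosen with these values known. The summed intensity of the 33 measured genes was 9196 to 11850 in mutant pools, 9014 to 9843 in wild-type pools, with 8883 in the negative control. Its largest parts were Sncg and Prph (means of 3083 and 2347 over the 9 arrays), and Prph is on the motor neuron list as well.

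**Figure D4:**
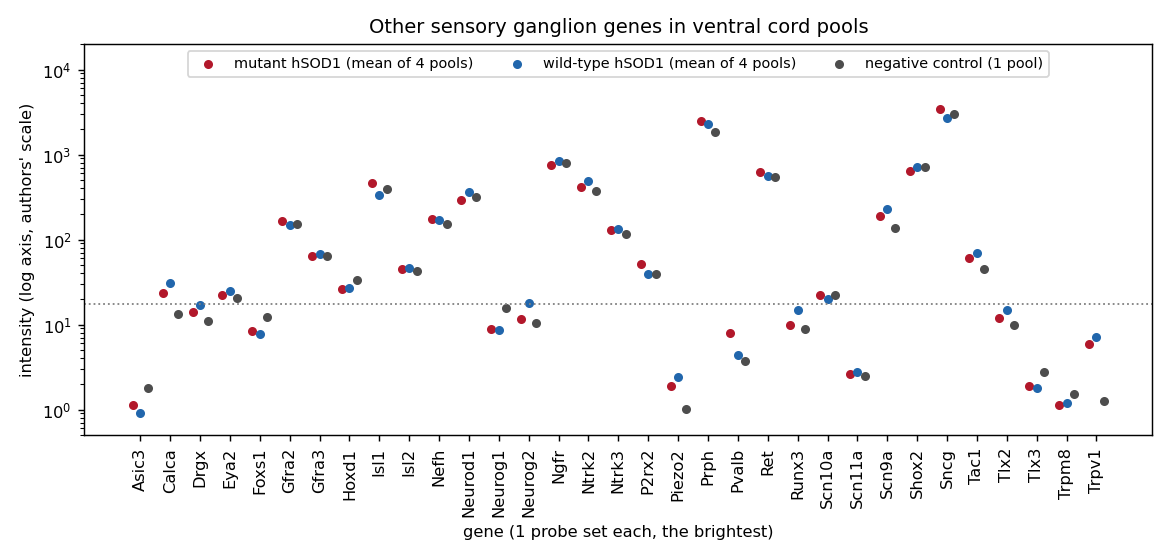
Intensity on a log axis of the sensory ganglion list genes, in alphabetical order, for the mutant pools, the wild-type pools and the negative control. In the values of the single pools, mutant and wild-type pools overlap for each of the 20 genes above the limit for testing. The summed level of the 33 measured genes spans 9196 to 11850 in mutant pools and 9014 to 9843 in wild-type pools.

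Other cell types that can make these genes were followed through marker lists. Motor neuron genes, which bear on Runx1 since some mouse motor neurons make it, were measured for 10 genes, with 9 above the limit. Of these 7 were higher and 2 lower in mutant than in wild-type pools, with a median log2 difference of 0.23, where 53.7% of all tested probe sets were higher and their median was 0.01. The motor neuron median was 0.10 with the beta-actin ratio as a covariate and 0.07 among le2-tagged pools alone. Aldh1a2, a retinoic acid synthesis enzyme of limb-level motor neurons, was 1695 ± 644 in mutant pools, 1104 ± 234 in wild-type pools, with 1124 in the negative control. Foxp1, a transcription factor of limb motor neurons, was 912 ± 188 in mutant pools, 799.7 ± 41.3 in wild-type pools, with 839 in the negative control. The summed motor neuron list was 5128 to 8463 in mutant pools, 4736 to 6018 in wild-type pools, with 5224 in the negative control. In limma 0 of the 9 passed, with 2 at an unadjusted p under 0.05 between mutant and wild-type pools (4.93% of all tested), and the part of these genes in the Runx1 difference was not tested.

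Blood and vessel genes, which bear on Runx1 through blood formation, were mostly dim. Of 14 measured myeloid genes 1, Lyz2, lay above the limit, and the highest value of Ptprc, which encodes the leukocyte antigen CD45, was 7.22. The summed myeloid list was 111 to 144 in mutant pools, 116 to 128 in wild-type pools, with 109 in the negative control. Lyz2, a lysozyme gene, was 16.3 ± 4.55 in mutant pools, 22.0 ± 4.20 in wild-type pools, with 11.7 in the negative control, a log2 difference of −0.31 between mutant and wild-type pools. Ptprc, far below the limit, was 1.03 ± 0.984 in mutant pools, 4.13 ± 2.49 in wild-type pools, with 3.38 in the negative control. The means of the other myeloid genes below the limit went both ways. Of the brightest, Fcer1g was 17.7 ± 2.59 in mutant pools, 13.1 ± 1.93 in wild-type pools, with 13.2 in the negative control. Csf1r was 15.2 ± 7.98 in mutant pools and 13.0 ± 5.11 in wild-type pools, and C1qa was 12.3 ± 3.07 in mutant pools and 14.4 ± 3.49 in wild-type pools. None of 9 erythroid genes and 2 of 9 endothelial genes lay above the limit. The part of these cells in the Runx1 difference was not tested.

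Neural crest glia accompany sensory neurons in the ganglia. Of 7 measured genes, Pmp22 and Fabp7 lay above the limit, while Sox10 and Foxd3, which define the lineage, reached at most 14.8 and 6.92. Which cells of the pools made the Pmp22 and Fabp7 RNA was not tested. Pmp22, a myelin protein gene, was 80.9 ± 7.31 in mutant pools, 58.0 ± 16.1 in wild-type pools, with 50.7 in the negative control. Its wild-type replicate 3 was the highest wild-type pool, as for Runx1. Among mutant pools Pmp22 was highest in replicate 4 (87.5), the pool where both Runx1 probe sets were lowest. The summed glia list was 270.3 to 819 in mutant pools, 252 to 721 in wild-type pools, with 246 in the negative control. Most of this sum was Fabp7, which was 681 in mutant replicate 3 and 629 in wild-type replicate 1, the highest pools of their groups. The sum therefore follows that gene and is not a level of the list as a whole. Dorsal cord genes, which bear on Pou4f1, were measured for 12 genes, with 8 above the limit, 4 higher and 4 lower in mutant pools (median 0.01) and 1 higher and 7 lower in transgenic pools than in the negative control (median −0.11). Their summed intensity was 713 to 1032 in mutant pools, 875 to 967 in wild-type pools, with 993 in the negative control. In both lists 0 genes passed in limma in either comparison. In each, 1 gene had an unadjusted p under 0.05 between mutant and wild-type pools (4.93% of all tested).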

How the data were processed

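Total RNA of ventral spinal cord pools was measured on 9 Affymetrix rat arrays. The deposited table gives 1 linear intensity per probe set and array. The sources used here do not name the software that made it. From the values, the authors' arrays share a trimmed mean (2% off each end), so no further normalization was added. Control probe sets (57 of 31099) were left out. Symbols came from the platform annotation, and 20758 Entrez identifiers were found in the RefSeq gene table.

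Intensities were taken to log2 after adding 8.25 (the 25th percentile). Probe sets with a mean log2 above the 40th percentile were tested with limma 3.58.1 in R 4.3.3 (lmFit, eBayes with trend), with Benjamini-Hochberg adjustment and a threshold of 0.05. The 8 transgenic arrays were fitted for mutant against wild-type pools, and all 9 for comparisons with the negative control. On simulated data for the first comparison, 87 of 98 probe sets changed by a log2 of 1 and 90 of 90 changed by 2 were recovered, with 10 false calls.

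The labels number the pools as biological replicates. Arrays have no read depth, and their number limits the precision. Named list genes were the 8 sensory genes and the 4 genes of each other list with the highest mean, and any past the threshold, each by its brightest probe set. Some further list genes, among them Drgx, Scn9a, Sox10 and Ptprc, were named outside this rule. Members and lists were chosen with earlier results of these data known. Alternatives were other pseudocounts, filters, normalizations and variance models, the le2 tag or beta-actin ratio as covariates, a replicate block, and each array left out in turn.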

Additional observations from a re-analysis of the deposited data

Results flagged for a closer look

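In each group of 4 pools, the highest and lowest values of the members, of the named list genes and of the RNA quality ratios were checked with Dixon's gap test, which flags about 1 in 20 groups by chance. Of 108 groups, 8 stood out. For Runx1 (1395442_at), wild-type replicate 3 read 21.1, where the other wild-type pools read 11.8 to 12.7. For P2rx3, mutant replicate 4 read 22.0 on 1388077_a_at, where the other mutant pools read 10.9 to 12.6, and wild-type replicate 2 read 54.9 on 1368667_at, where the other wild-type pools read 77.1 to 80.7.

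Among the list genes, Fabp7 was 681 in mutant replicate 3 (other mutant pools 165 to 241) and 629 in wild-type replicate 1 (other wild-type pools 161 to 238). Svil was 17.2 in mutant replicate 2 (other mutant pools 26.8 to 28.4), and Flii was 363 in wild-type replicate 4 (other wild-type pools 288 to 290.2). The beta-actin 3′/5′ ratio was 19.2 in wild-type replicate 2, against 8.19 to 9.20 in the other wild-type pools.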

How the results depend on the processing

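The Runx1 difference, mutant minus wild-type, was above 0 under all alternatives run, from 0.45 (without wild-type replicate 4) to 0.82 (without wild-type replicate 3) over 20 settings on 1368914_at and from 0.29 (4 times the pseudocount) to 0.74 over 19 on 1395442_at, which a filter at the 60th percentile removed. With single arrays left out, Pou4f1 ranged from 0.0040 to 0.35, Avil from −0.21 to 0.0034 (above 0 without mutant replicate 2), P2rx3 from −0.19 to 0.08 on 1368667_at and from −0.27 to −0.05 on 1388077_a_at. On le2-tagged arrays alone, an alternative added after seeing the data, P2rx3 on 1368667_at was 0.12.

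The number of probe sets past the threshold between mutant and wild-type pools, 3, was 1 without a filter, 1 with the filter at the 60th percentile, 5 with median centring, 0 without an intensity trend, 1 with the le2 tag as a covariate, 0 with the beta-actin ratio as a covariate, 0 on le2-tagged arrays alone, and 1 to 3 with single arrays left out. Against the negative control, 0 became 1 with a pseudocount of 2.06, with median centring or without wild-type replicate 1 (0 to 1 with single arrays left out). The adjusted p of the members against the negative control lay between 0.963 and 1 in limma.

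Nothing in the labels pairs the pools by replicate number, and the check did not find every pair correlated over 0.1. Same-numbered arrays correlated at 0.12, 0.087, −0.07 and 0.20 in their departures from the group means, and 5 of 8 arrays correlated best with their own number. With the number as a replicate block, 3 probe sets passed, 1211 had an unadjusted p under 0.05 (918 without the block), and the Runx1 difference stayed at 0.64.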
